A study of Mus musculus with 6 samples.

Results

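Regions of altered DNA methylation that lay more than 20 kb and up to 100 kb from the nearest listed transcription start site (TSS) were examined in liver tumors of C3H mice. They were chosen by that distance alone, without regard to the size or sign of the change, and numbered 4928 of the 14176 regions in the authors' deposited table (34.8%). The comparison was between 3 normal livers and 3 liver tumors, all from male C3H/HeN mice of 74 weeks that were grandoffspring (F2) in the unexposed arm of an arsenic project, and the tumors had a mutated Ha-ras gene, a driver of growth signaling. The assay was reduced representation bisulfite sequencing (RRBS), in which DNA is cut at CCGG by the enzyme MspI and unmethylated cytosine is converted by bisulfite. Each region carried 1 value, the mean difference in percent methylation, tumor minus normal, in percentage points. A negative value is called a loss and a positive value a gain. The table gave no value for single animals, so no spread between animals and no test across the 6 samples could be computed, and the intervals below are exact 95% intervals for counting regions only. The sources used here do not say whether any tumor shared an animal with a normal liver, and the tissue label could not be checked against expressed markers in methylation data.

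In mammalian DNA, methyl groups are placed mainly on the cytosine of CpG dinucleotides. Most CpGs far from promoters are methylated in normal tissue, whereas CpG islands, stretches rich in CpG, are mostly free of methylation. Sequence far from a promoter includes gene bodies, repeats and enhancers, the elements that raise transcription of a gene from a distance. Loss of methylation in intergenic and repeated sequence, together with gain in some CpG-rich sequence, is a known feature of tumor DNA.

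Among the 4928 regions, 4180 were losses and 748 were gains. The loss share was 84.8% (exact 95% interval 83.8 to 85.8%), and the background over the whole table was 85.1%, so the members as a set did not stand apart in this share. The median difference was -24.7 points among losses and 28.1 points among gains, and single regions ranged from -70.2 points (Spred2, 12 cytosines) to 66.1 points (a region of 4 cytosines listed under Smurf2). At the study's threshold of 30 points, 1124 members passed in either direction (22.8%, background 23.5%). Of these, 814 were losses (16.5% of members, background 18.0%) and 310 were gains (6.29% of members, background 5.57%). The members covered 994 kb in all, with a median span of 162 bp and a median of 5 CpG cytosines, and had 3193 nearest genes. They held 32067 measured CpG cytosines, of which 17060 (53.2%) were differentially methylated cytosines (DMCs), the single cytosines that passed the authors' own test.

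The reference sequences of 6 members are printed here because they span the range of findings: large losses and gains in which every measured cytosine was a DMC, and a loss in an annotated enhancer. The losses were an intron of Prkca, the gene of protein kinase C alpha, at chr11:108039102-108039275 (-65.9 points, 16 of 16 cytosines) and an intron of Pxn, the gene of the focal adhesion protein paxillin, at chr5:115530555-115530707 (-58.9 points, 8 of 8). The gains were a coding exon of Dop1b, listed as Dopey2, at chr16:93770551-93770727 (64.3 points, 16 of 16), intergenic sequence listed under Saysd1 at chr14:20116403-20116531 (62.7 points, 8 of 8), and an intron of Galnt2, an enzyme that starts mucin-type O-glycosylation, at chr8:124310489-124310702 (58.1 points, 13 of 13). The enhancer region lay in an intron of Runx1, a transcription factor of blood cell development, at chr16:92801798-92801902 (-24.1 points, 2 of 4). All are the plus strand of the reference build GRCm38, read 5′ to 3′ from the C57BL/6J genome rather than from C3H reads, with each CpG in capitals. The Galnt2 sequence ends at the c of a further CpG, whose g lies beyond the region.
Prkca intron: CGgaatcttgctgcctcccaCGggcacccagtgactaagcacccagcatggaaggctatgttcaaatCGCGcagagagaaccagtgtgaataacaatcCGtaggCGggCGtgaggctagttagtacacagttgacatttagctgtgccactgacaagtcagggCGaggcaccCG
Pxn intron: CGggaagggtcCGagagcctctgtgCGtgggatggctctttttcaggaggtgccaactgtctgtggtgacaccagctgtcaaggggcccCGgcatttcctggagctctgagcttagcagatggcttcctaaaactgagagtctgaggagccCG
Dop1b coding exon: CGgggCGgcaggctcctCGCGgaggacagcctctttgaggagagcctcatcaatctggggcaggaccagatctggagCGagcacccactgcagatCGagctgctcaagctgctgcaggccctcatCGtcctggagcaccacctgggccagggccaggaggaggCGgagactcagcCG
Saysd1 intergenic: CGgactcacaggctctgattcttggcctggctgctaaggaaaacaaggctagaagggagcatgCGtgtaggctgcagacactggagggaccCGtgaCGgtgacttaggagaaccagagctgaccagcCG
Galnt2 intron: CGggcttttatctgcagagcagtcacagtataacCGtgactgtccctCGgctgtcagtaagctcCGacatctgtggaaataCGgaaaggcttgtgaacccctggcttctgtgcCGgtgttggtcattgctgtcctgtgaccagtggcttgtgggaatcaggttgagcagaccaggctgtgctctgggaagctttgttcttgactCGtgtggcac
Runx1 enhancer: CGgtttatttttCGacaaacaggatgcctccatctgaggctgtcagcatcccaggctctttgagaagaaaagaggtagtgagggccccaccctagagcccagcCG

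The cytosines of both strands were counted apart, so the Prkca and Dop1b sequences hold 9 CpGs each for 16 measured cytosines, and the Runx1 sequence holds 3 CpGs for 4. The same was seen over the set, where 66.1% of members had more CpG cytosines than CpG dinucleotides and 590 members covered exactly 2 dinucleotides.

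Distance from the TSS went with the share of losses within the range. From 20 to 40 kb, 80.1% of 1939 regions were losses (78.3 to 81.9%). From 40 to 60 kb the share was 86.6% of 1332 (84.7 to 88.4%), and from 60 to 100 kb it was 88.8% of 1657 (87.2 to 90.3%). In steps of 10 kb the share was 79.6% at 20 to 30 kb, 90.5% at 60 to 70 kb and 85.4% at 90 to 100 kb, so it was not higher at every step. Among regions of at least 30 points the losses were 66.0%, 73.8% and 79.3% over the same 3 ranges. The members lay between their neighbours on either side. Regions 2 to 20 kb from a TSS were losses in 75.6% of 3723 (74.2 to 76.98%), and regions 100 to 500 kb away in 95.8% of 3673 (95.1 to 96.4%). The median distance was 48.7 kb for losses and 39.2 kb for gains.

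**Figure D1:**
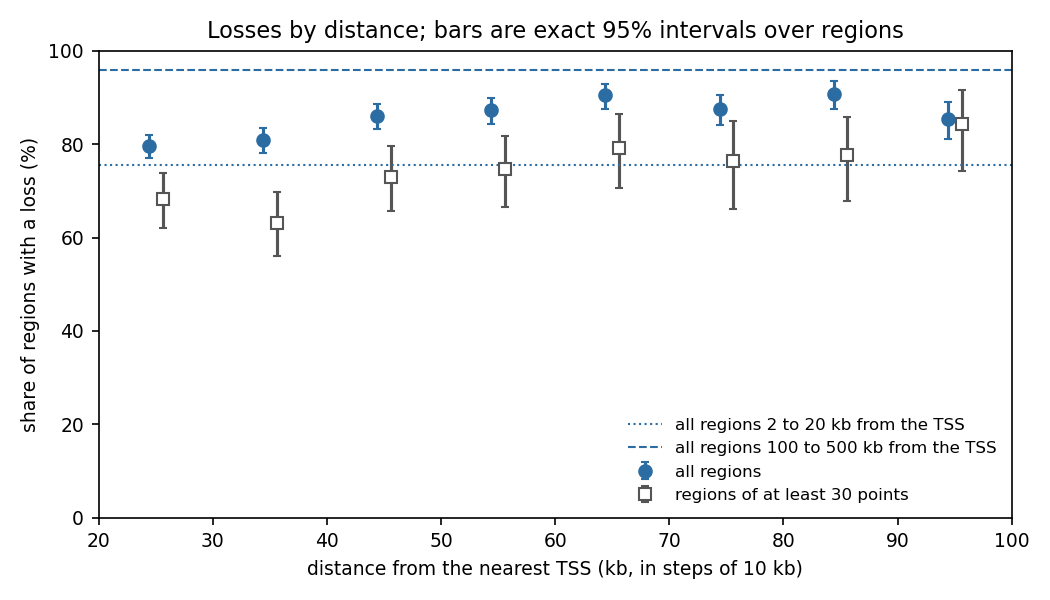
Share of regions with a loss (y axis, %) in steps of 10 kb of distance from the nearest TSS (x axis, kb), for all members (filled circles) and for members of at least 30 points (open squares), with exact 95% intervals over regions. The horizontal lines give the shares 2 to 20 kb (75.6%) and 100 to 500 kb (95.8%) from a TSS, and every filled circle sits between them.

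The regions nearest to the limits carried differences of both signs at the near limit and losses at the far one. Just inside 20 kb, an intron of Rhpn2 listed under C230052I12Rik at 20004 bp had 43.2 points. Just outside, Tmem53 at 19990 bp had 20.9 points and Cmklr1 at 19991 bp had -22.3 points. At the far limit, Gnb2l1 at 99936 bp (-20.2 points) and Dnah7a at 99955 bp (-20.03 points) were inside, and Stx18 at 100022 bp (-31.0 points) and Cdh23 at 100028 bp (-22.3 points) were outside.

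Position relative to genes also separated the members. The loss shares by gene position, CpG island, repeat content and chromosome are given for members alone. Whether they differ from those of the other regions is not reported here. Of the 4928, 2801 overlapped a gene of the RefSeq annotation and 2127 were intergenic. The loss share was 79.5% in genes (77.9 to 81.0%) and 91.9% in intergenic sequence (90.6 to 93.0%). Within genes it was 80.8% of 2142 regions in introns, 77.1% of 384 in coding exons, 72.8% of 173 in non-coding exons and 71.6% of 102 in untranslated regions, intervals that overlapped for the exon classes. The distance trend was present on both sides of this split. In genes the loss share was 74.1% from 20 to 40 kb, 81.7% from 40 to 60 kb and 84.6% from 60 to 100 kb, and in intergenic sequence it was 88.9%, 93.6% and 93.5%. Regions in the listed gene itself (1550) and in another gene than the listed one (1251) had the same loss share of 79.5%. Upstream of the listed TSS 87.8% of 2136 regions were losses and downstream 82.5% of 2792, but among intergenic regions alone the shares were 92.1% and 91.6%, which differed by less than their intervals.

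Gains made up a larger share in CpG islands than elsewhere, although most gains lay outside islands and shores (511 of 748). Members that overlapped a CpG island were losses in 70.2% of 382 (65.3 to 74.7%), those in shores, the sequence within 2 kb of an island, in 83.2% of 732 (80.3 to 85.8%), and all others in 86.6% of 3814 (85.5 to 87.7%). At 30 points or more, losses were 42.3% of 78 island regions (31.2 to 54.0%). The median density of measured CpG cytosines was 3.92 per 100 bp for gains and 3.35 for losses. Median GC content over the region and its flanks was 49.6% for gains and 47.4% for losses. Repeats went the other way. Where at least 50% of the region was repeat sequence, 951 of 992 members were losses (95.9%, 94.4 to 97.02%), against 82.0% of 3936 members with less repeat sequence (80.8 to 83.2%). Regions of at least 50% repeat sequence made up 22.8% of losses and 5.48% of gains.

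Losses were more numerous, but gains were the majority among members of at least 50 points, a limit set after the data were seen. The largest single changes were still losses, at -70.2 and -67.8 points, against a highest gain of 66.1 points. The loss share was 89.2% of 2462 regions from 20 to 25 points, 87.2% of 1342 from 25 to 30, 78.7% of 870 from 30 to 40 and 57.1% of 198 from 40 to 50. At 50 points or more, 16 of 56 members were losses and 40 were gains (28.6% losses, 17.3 to 42.2%). Outside the members, losses were 85.2% of 9248 regions and 78.3% of the 2213 of at least 30 points. A lower share at 30 points or more was therefore not particular to the members. The shares outside the members at 50 points or more, and by number of cytosines, are not given here. Whether a majority of gains at 50 points or more was particular to the members cannot be read from these values. Among members, the loss share was also lower where more cytosines stood behind the value. It was 88.6% of 1141 regions with 3 cytosines, 75.9% of 609 with 10 to 19, and 47.9% of 119 with at least 20 (38.7 to 57.2%), where 57 were losses and 62 gains. The read depth per region was not in the table, so the number of cytosines was the only measure of how much data stood behind a value.

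**Figure D2:**
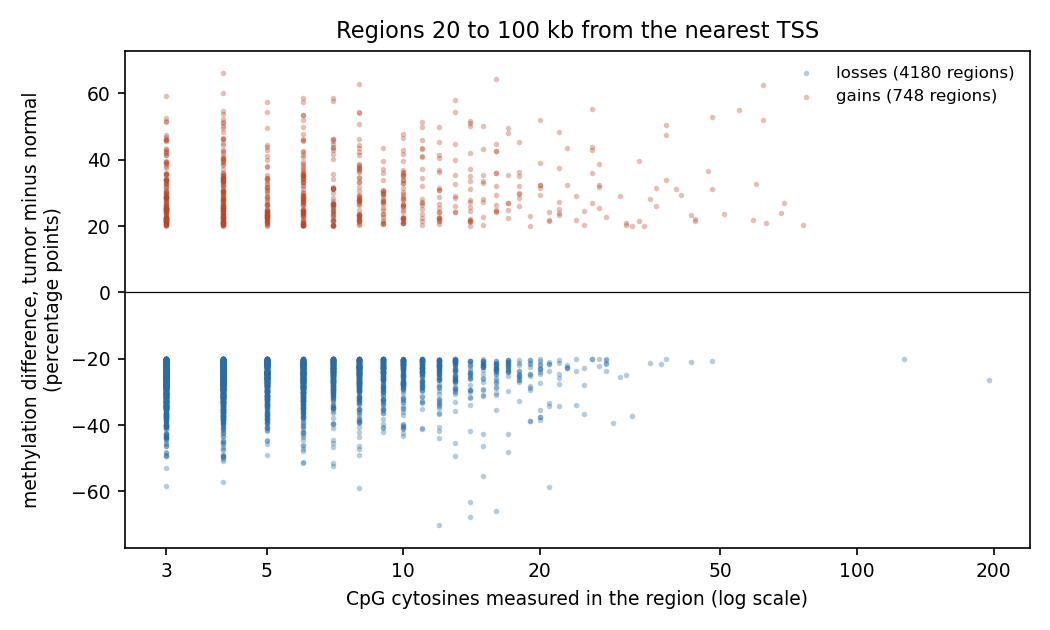
Methylation difference, tumor minus normal (y axis, percentage points), against the number of CpG cytosines measured (x axis, log scale) for each of the 4928 members, with 4180 losses in blue and 748 gains in red. The empty band between -20 and 20 points reflects the deposited table, which holds no smaller difference, and among members with at least 20 cytosines gains (62) were about as many as losses (57).

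**Figure D3:**
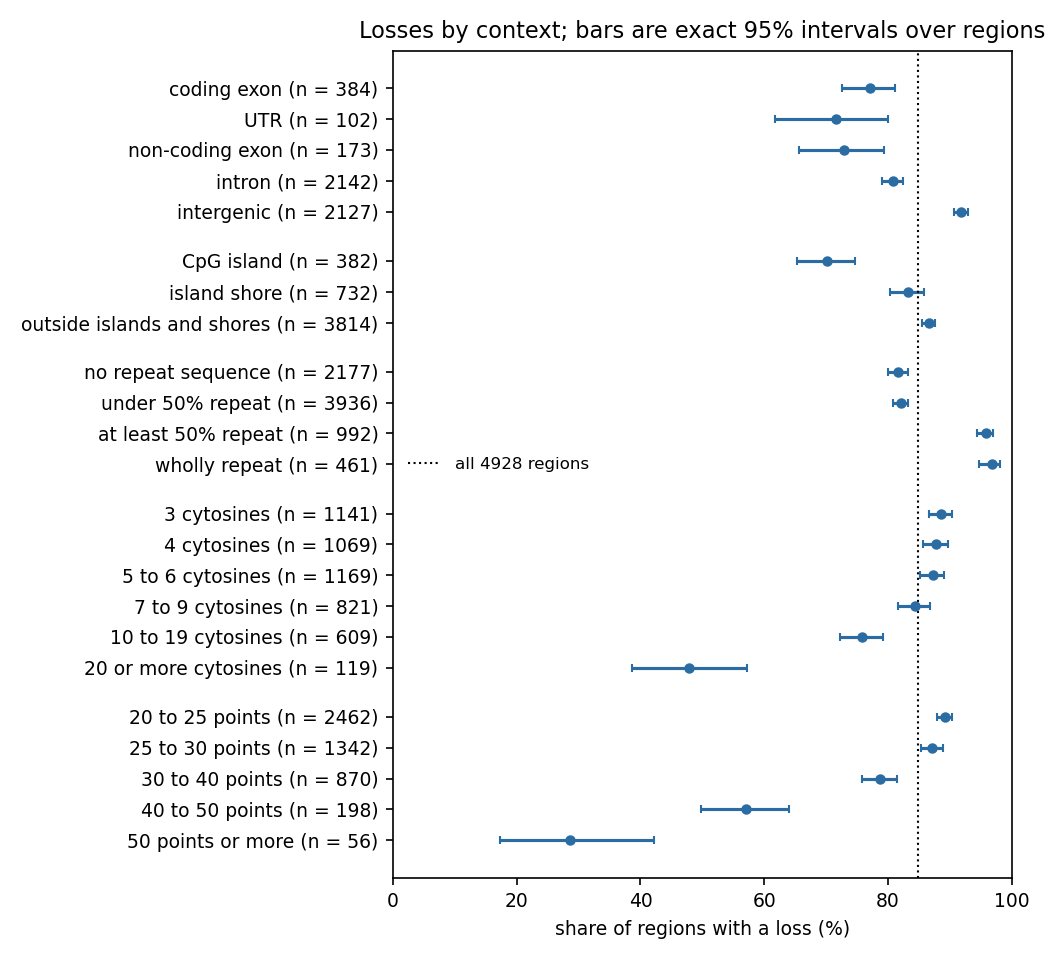
Share of members with a loss (x axis, %) by gene feature, CpG island context, repeat content, number of CpG cytosines and size of the difference, with exact 95% intervals over regions and n in each label. The dotted line is the share over all members (84.8%), and the lowest shares are at 50 points or more (28.6%) and at 20 or more cytosines (47.9%).

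The 10 largest losses and the 10 largest gains were taken among the 393 members with at least 5 CpG cytosines of which at least 80% were DMCs. Signaling and adhesion genes were among the losses. Spred2, an inhibitor of Ras and MAPK signaling, had the lowest value of all members, with -70.2 points over 12 of 12 cytosines at 55.1 kb from its TSS (chr11:19979518-19979697). That region lay in an intron of the curated Spred2 transcript and overlapped the first exon of a predicted one. A coding exon of Arhgap22, which encodes a GTPase-activating protein, was listed under the stress kinase gene Mapk8 and had -67.8 points over 14 of 14 cytosines. The Prkca intron followed at -65.9 points, listed under Mir7223, then Tbc1d31 (-63.2 points, 14 of 14), the Pxn intron (-58.9 points) and a region in Gm26562 listed under Cpn2, a subunit of the plasma enzyme carboxypeptidase N (-58.7 points, 20 of 21). Further losses were in introns of the Cdc42 exchange factor gene Dnmbp (-55.3 points), Setbp1 (-52.3 points) and Tom1l2 (-51.5 points).

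Among the gains by the same rule, the Dop1b exon (64.3 points) and the Saysd1 region (62.7 points) were followed by a coding exon of Scn8a, a voltage-gated sodium channel gene, at 62.5 points over 61 of 62 cytosines. That was the gain with the most cytosines in this group. An intron of Zc3h7b listed under Tef, a transcription factor of the circadian output, had 58.6 points, and an intron of Abat, which encodes GABA transaminase, had 58.5 points. Galnt2 had 58.1 points, a region listed under the kinase gene Pim1 57.8 points, Ccdc170 57.6 points, the matrix protein gene Papln 57.4 points and the phosphatase gene Ctdspl 55.3 points over 25 of 26 cytosines. The 3 members with the most cytosines had small differences. A region in Agap3 held 195 cytosines (113 DMCs, -26.3 points), one in Ildr2 held 127 (48 DMCs, -20.02 points) and one in Zfp423 listed under 4933402J07Rik held 76 (31 DMCs, 20.4 points).

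Regions of the same gene mostly had the same sign. Of 1030 nearest genes with at least 2 member regions, 830 had only losses, 66 only gains and 134 both. At least 5 regions were assigned to each of 86 genes, of which 73 had only losses and 4 only gains, and at least 7 to each of 18, of which 15 had only losses. With 84.8% losses over all members, many genes hold only losses whatever the link between their regions. Whether regions of the same gene shared a sign more often than that was not tested. Regions that share a gene also share neighbouring sequence, so they are not independent of each other. Rbfox3, which encodes a neuronal splicing factor, was the nearest gene of 13 regions, 12 of them losses, from -37.1 to 28.3 points. The Rac exchange factor gene Tiam1 had 9 losses, 8 of them intergenic, from -33.7 to -21.3 points. Ajap1 had 9 losses that varied little, from -27.7 to -24.3 points, and Afap1, which encodes an actin filament-associated protein, had 9 from -37.8 to -20.9 points.

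The listed gene was often not the gene that held the regions. All 9 losses listed under Mir6364 lay in Prex1, another Rac exchange factor gene, over 49.9 kb, with values from -40.7 to -21.4 points. All 8 listed under Fam109a lay in Cux2, a homeobox gene of neurons, over 45.7 kb, from -30.2 to -21.9 points. Counted by the gene overlapped, Rbfox3 held 17 regions (16 losses), and Prdm16, a transcriptional regulator of brown fat, the cadherin gene Cdh23 and Cux2 held 10 losses each. Hivep3 and the teneurin gene Tenm4 held 9 losses each, with lowest values of -45.5 and -43.8 points. The leukocyte Rac exchange factor gene Dock2 held 7 losses from -38.3 to -21.7 points. Runx1 held 7 losses in a narrow range from -26.7 to -20.8 points.

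Clusters of gains were fewer. Those described here were picked for their gains after the values were seen, so their direction is a description. Sh3pxd2a, which encodes a scaffold of invadopodia, held 8 regions, all gains, from 20.8 to 52.1 points over 135 kb, and the largest of them rested on 54 DMCs of 62 cytosines in a coding exon. Ass1, the argininosuccinate synthase gene of the urea cycle, held 6 gains from 22.7 to 36.4 points over 24.7 kb. They were listed under Gm5424, whose listed start lay close to that of Ass1, 25027 bp from the first region. A further gain of 39.7 points, listed under Fubp3, lay just beyond the gene, and these 7 formed the longest run of neighbouring members, counted in steps of up to 10 kb. The next longest were 6 losses in Jakmip1, from -35.4 to -21.0 points. Mgll, the monoacylglycerol lipase gene, and Anks1 held 6 gains each, from 20.2 to 35.3 and from 20.2 to 47.7 points. Ece1, which encodes the endothelin-converting enzyme, held 5 from 24.8 to 54.4 points. The nuclear receptor gene Rxra and the transcription factor gene Nfix held 4 gains each, from 20.1 to 30.7 and from 20.48 to 36.6 points. By the RefSeq annotation used here, some of these gains lay nearer to a TSS than the deposited distance. The Nfix regions lay 0 to 8465 bp from the TSS of G430095P16Rik, with the largest gain at 0 bp. The Ece1 regions lay 1312 to 22489 bp from a TSS, with the largest gain at 10974 bp. Genes with both signs included Tns1, which encodes the focal adhesion protein tensin, with 4 gains and 3 losses from -35.5 to 39.5 points, and Cmip with 4 gains and 2 losses.

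**Figure D4:**
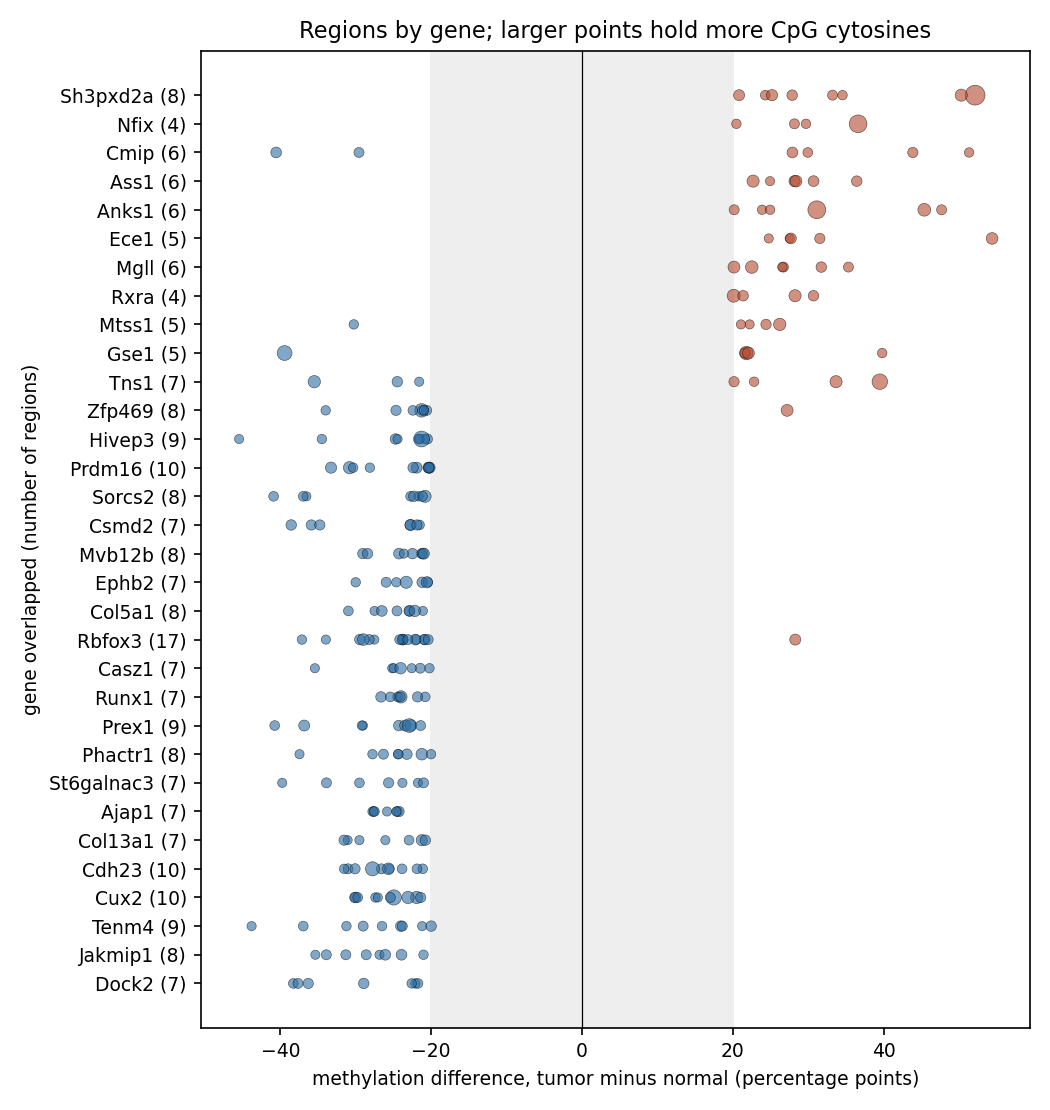
Methylation difference, tumor minus normal (x axis, percentage points), of each member in the genes reported here that held at least 7 members or at least 4 gains (y axis, number of regions in brackets), with losses in blue, gains in red and larger points for more CpG cytosines. Sh3pxd2a, Nfix, Ass1, Anks1, Ece1, Mgll and Rxra hold gains only, and the 17 regions of Rbfox3 include 1 gain. The grey band marks differences under 20 points, which the deposited table does not hold.

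Adjacent members mostly had the same sign. With 84.8% losses many pairs share a sign whatever their distance, and whether neighbours did so more often was not tested. Of 152 adjacent pairs within 2 kb, 126 were both losses, 20 both gains and 6 opposite (96.1% of the same sign). Of 662 pairs within 10 kb, 551 were both losses, 69 both gains and 42 opposite (93.7%). Joined in steps of up to 10 kb, 1173 members formed 511 runs of at least 2, and 3755 stood alone. Of 33 runs with at least 4 members, 28 were all losses and 3 all gains.

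Lists of genes were compared with the background by the sign of the regions assigned to them, with 85.1% losses over the whole table. Assignment was by the nearest listed gene, and many of these regions lay in another gene or between genes. For xenobiotic metabolism 1 of 8 regions lay in the listed gene, and for glucose and lipid metabolism 11 of 18. Lists of hepatocyte function were mixed. Regions nearest to genes of glucose and lipid metabolism were 6 losses and 12 gains (33.3% losses, 13.3 to 59.0%), with a median of 27.6 points. The largest gains were at Cyp7b1, a hydroxylase of bile acid synthesis (47.5 points), the acyl-CoA synthetase gene Acsl1 (42.5 points) and the hepatic lipase gene Lipc (40.1 points), while Fbp2, a fructose bisphosphatase gene, had -38.8 points. Liver transcription factors had 9 losses and 8 gains (52.9%), with -38.3 points at Rora, 33.4 points at the bile acid receptor gene Nr1h4 and 30.7 points at Rxra. Xenobiotic metabolism had 4 of each, of which 1 passed 30 points, the aldehyde oxidase gene Aox3 (42.0 points). Secreted liver proteins had 1 loss and 3 gains, all under 30 points. Over the rest of the table these lists were similarly mixed, with 41.4%, 39.3%, 26.1% and 52.6% losses in the order given.

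Signaling lists held both signs and, over all their regions, more losses than gains. At 30 points or more, Ras and MAPK signaling had 11 losses and 1 gain, and Wnt and TGF-beta signaling 9 losses and 10 gains. Growth factors and receptors had 4 losses and 5 gains. At that threshold 76.3% of regions over the whole table were losses. Over the rest of the table the same lists had 3 losses and 4 gains, 8 and 5, and 18 and 7, in the order given. Over all its member regions, Ras and MAPK signaling had 23 losses and 6 gains (79.3%, 60.3 to 92.0%). Its largest values were those listed under Spred2 and Mapk8, followed by the stress kinase kinase gene Map3k5 (51.9 points) and the MAPK phosphatase gene Dusp5 (-38.5 points). Wnt and TGF-beta signaling had 39 losses and 16 gains (70.9%, 57.1 to 82.4%). Smad3, which carries the TGF-beta signal to the nucleus, had regions at -47.1 and -43.1 points, while the Wnt inhibitor family gene Dkk3 and the Wnt receptor gene Fzd7 had 43.4 and 43.2 points. Growth factor receptors and ligands had 28 losses and 11 gains (71.8%), with -38.4 points at the receptor gene Flt3 and 38.0 points each at the ligand genes Kitl and Vegfa. Fgf10, a fibroblast growth factor gene, had -35.1 points.

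Cell cycle, p53 and apoptosis had 10 losses and 2 gains (83.3%), with -38.9 points at Mdm2, the ubiquitin ligase of p53, -34.4 points at the caspase gene Casp8 and 33.3 points at the cyclin gene Ccnd3. Cdk6, the partner kinase of D-type cyclins, had -32.8 points. Chromatin and DNA methylation genes had 10 losses and 7 gains (58.8%, 32.9 to 81.6%). The chromatin remodeler genes Chd7 and Smarca2 had 54.4 and 47.5 points, and the acetyltransferase gene Kat6b and the methyltransferase gene Setd7 had -43.7 and -34.8 points. Regions assigned to the 2 large gene families were nearly all losses. Those listed under olfactory receptors were 25 of 25 losses (100%, 86.3 to 100%). The lowest were listed under Olfr1252 (-40.7 points), Olfr412 (-37.2 points) and Olfr1465 (-36.1 points). Of these 25 regions, 18 were intergenic, 7 lay in another gene and none lay in the listed receptor gene. Over the rest of the table, 141 of 141 regions on this list were losses. Cadherins and protocadherins had 36 losses of 38 members (94.7%), and 133 of 142 regions over the rest of the table. Their lowest member values were at Cdh20 (-37.2 points) and Cdh1, the epithelial cadherin gene (-32.6 points).

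Marker genes of the other cells of the liver were also assigned losses. Leukocyte markers had 11 of 11 losses listed under 3 genes, with -32.1 points for Ikzf1. Of these, 6 were listed under Irf8, a myeloid transcription factor, with a lowest value of -31.2 points. Among the 11 regions, 1 lay in the listed gene, 3 lay in another gene and 7 were intergenic, and none of those listed under Irf8 lay in it. Endothelial markers had 11 losses of 12 (91.7%), with -30.5 points in an intergenic region listed under Erg and the gain, 31.4 points, listed under Sox17. Stellate and fibroblast markers had 3 of 3 and cholangiocyte markers 2 of 2. These shares were above the background of 85.1%, but the interval of each list included it. The intervals of the small lists were wide (71.5 to 100% for leukocyte markers). In bulk tissue, a change of methylation within cells and a change in the mix of cells cannot be told apart.

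**Figure D5:**
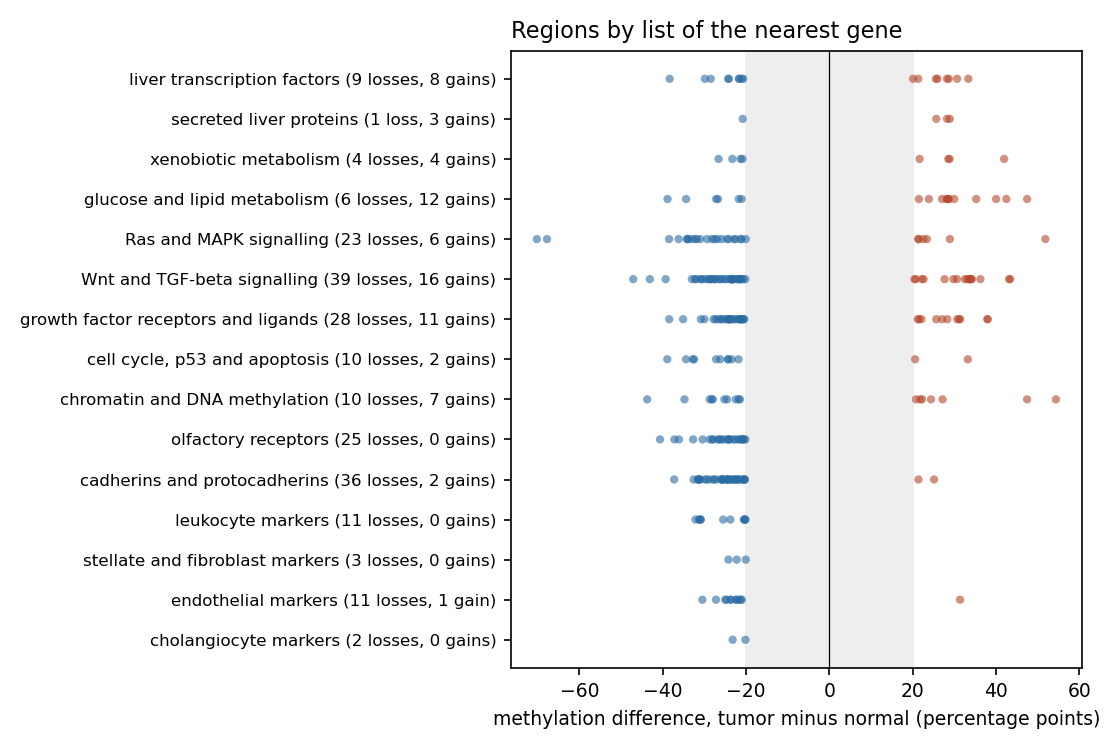
Methylation difference, tumor minus normal (x axis, percentage points), of the members whose nearest gene is on each of the 15 lists (y axis, with counts), losses in blue and gains in red. Olfactory receptors (25 losses) and leukocyte markers (11 losses) hold no gain, while glucose and lipid metabolism holds 12 gains and 6 losses.

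RefSeq marks few experimentally studied regulatory elements in the mouse genome, and 19 members overlapped such an element, 16 of them an enhancer from the VISTA collection tested in mouse embryos. These were 9 losses and 10 gains, out of 4928 members. Of all 14176 deposited regions, the members included, 40 overlapped an element, 24 losses and 16 gains. The background over the whole table was 85.1% losses. The overlap was looked at after the data were seen. The Runx1 region printed above (-24.1 points) overlapped an intronic enhancer of that gene. The largest gain was at an element of Zfpm1, the gene of a GATA cofactor, with 49.6 points over 15 DMCs of 17 cytosines, followed by Rcan1 (38.8 points, 3 of 4) and an element in Sh3pxd2a (33.2 points, 5 of 6). An intronic VISTA enhancer of Smad6, an inhibitor of BMP signaling, gained 30.7 points. The largest losses were at an element listed under 1700122O11Rik (-40.4 points, 2 of 3 cytosines) and at one in Gse1 (-39.4 points, 21 of 29).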

How the data were processed

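Genomic DNA of 3 normal livers and 3 liver tumors was examined by RRBS. The authors trimmed reads with Trim Galore, aligned them to mm10 with Bismark, called DMCs with methylKit (q-value, coverage and difference thresholds), built regions with eDMR, and found the nearest RefSeq TSS with bedtools 2.25.0, a version from the submitters' processing notes. The sources used here do not give the other versions. In the authors' deposited table there is a methylation difference score per region, which is the mean tumor minus normal difference in percentage points, and the numbers of CpG cytosines and DMCs. It holds no value per sample, and the read depth is not given in it.

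Deposited starts were counted from 0, since 100% fell in a CpG of GRCm38 (mm10) after adding 1. Distances were taken as deposited, and 4591 members (93.2%) also lay at 20 to 100 kb by the RefSeq annotation used here. By that annotation 306 members lay within 20 kb of a TSS, 45 of them within 2 kb, and 31 lay beyond 100 kb. Gene features came from curated and predicted RefSeq transcripts, coding exons first. CpG islands were 200-bp windows of 50% GC or more whose observed to expected CpG ratio was 0.6 or more, joined to at least 300 bp. GC content included flanks of 500 bp.

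Shares carry exact (Clopper-Pearson) 95% intervals (scipy 1.17.1), tested on simulated data. The rule for named genes took the 10 largest losses and gains with at least 5 cytosines, at least 80% of them DMCs. It also took genes with at least 5 regions, of which some with at least 7 are described, and the 3 regions with most cytosines. Up to 4 members of 30 points or more per list were added, and 2 regions inside and outside each limit. Some results of this rule, 1 of the 2 regions just inside 20 kb among them, are not reported here. The 15 lists covered liver transcription factors, secreted liver proteins, xenobiotic metabolism, glucose and lipid metabolism, Ras and MAPK, Wnt and TGF-beta, growth factors and receptors, cell cycle, p53 and apoptosis, chromatin, olfactory receptors, cadherins, and markers of leukocytes, stellate cells and fibroblasts, endothelium and cholangiocytes. Members, lists, island definition and motifs were chosen with earlier results of these data known. Alternatives varied the minimum difference, cytosines and DMCs, the sex chromosomes, the TSS list, repeats and the counting of neighbours.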

Additional observations from a re-analysis of the deposited data

How the results depend on the processing

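The differences between shares and between medians kept their sign in all their alternatives, and 22 of the 38 alternatives moved a value by less than its interval. The loss share of 84.8% moved with the minimum difference, to 80.5% at 25 points, 72.4% at 30, 50.8% at 40 and 28.6% at 50, a setting chosen after seeing the data at which gains were the majority. It was 82.1% with at least 5 CpG cytosines, 71.3% with at least 10, 79.95% with at least 3 DMCs and 82.0% without regions of at least 50% repeat. With only the region of largest absolute difference kept for each nearest gene it was 82.4%. With 1 region per run of neighbours within 10 kb it was 84.6%. At 30 points or more and with at least 10 cytosines, respectively, the share in genes minus that in intergenic sequence went from -12.4 to -20.3 and -18.2 percentage points, the share at 60 to 100 kb minus 20 to 40 kb from 8.69 to 13.3 and 13.7, and the share of members minus regions at 100 to 500 kb from -11.0 to -21.8 and -17.5. The median of gains minus losses went from 0.567 to 1.22 cytosines per 100 bp with at least 10 cytosines. The cause of these shifts was not tested. The excess of 9.21 percentage points over regions at 2 to 20 kb stayed within its interval in all 5 alternatives run for it. No paired analysis was possible because the table holds 1 pooled difference per region, and for the same reason no replicate could be left out. Small differences, few cytosines per region and unknown read depth limit what single regions can show.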

Other observations

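Binding-site letters in the 500 bp around each region's center were counted on both strands, a search chosen with the data known, and a match is a description of the letters only. No motif searched contains another. AP-1 (TGANTCA) was found at 15.2% of losses, 12.03% of gains and 14.0% of the whole table. The forkhead letters TGTTTAC were at 6.05% of losses and 6.95% of gains (6.09% of the table), and those of HNF4A, CAAAGTCCA, at 18 losses (0.431%) and 8 gains (1.07%), against 0.543% of the table. C/EBP (TTGCNNAA) was at 22.1% and 20.9% (22.6% of the table), the E-box CACGTG at 9.21% and 8.69% (7.83%), and TEAD (GGAATG) at 25.9% and 23.8% (25.2%). Intervals of losses and gains overlapped for all 6.

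On the X chromosome 108 of 111 members were losses (97.3%, 92.3 to 99.4%), and on Y 9 of 9. On autosomes 84.5% of 4808 were losses, with the lowest share on chromosome 19 (73.9% of 119, 65.1 to 81.6%) and the highest on chromosome 7 (90.8% of 292, 86.8 to 93.8%).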
